A study of Mus musculus with 12 samples.

Results

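The genes described here were 9 myelin genes of oligodendrocytes, Mbp, Mobp, Mog, Mag, Cnp, Mal, Cldn11, Opalin and Ermn, taken from the whole-transcriptome tables by gene name. All 9 were listed at each of the 3 time points, among 39666, 39716 and 39647 gene names at 2 h, 24 h and 7 d. All 9 also passed a minimum mean FPKM of 1 (FPKM, the number of sequenced fragments of a gene corrected for transcript length and for library size), as did 13359, 13565 and 13429 genes in all. The study sequenced RNA from the prefrontal cortex of male C57BL/6 mice (C57BL/6 J in the methods), 10 weeks old, given daily injections of saline or of cocaine at 20 mg/kg over 14 days. The 6 groups were saline and cocaine mice taken at 3 times after the last injection (2 h, 24 h and 7 d), with different mice at each. Both sides of the cortex of 5 mice were pooled into 1 library, and 2 such libraries made up a group, which gives 12 libraries from 60 mice. The deposited tables give 1 FPKM per group, pooled over its 2 libraries, so that no spread between replicates is given for any value below, and sequencing depth per library cannot be read from these tables. No test was made, because the tables hold no value per library and the authors' own test results were not used. Every difference is therefore a difference between a pair of pooled values with no replicate check.

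Myelin is the lipid-rich sheath that oligodendrocytes wrap around axons, where it speeds the conduction of action potentials. It is built from stacked membrane held together by a few very abundant proteins, with channels of cytoplasm kept open at its edges, and adhesion molecules on its inner and outer faces. The genes for these proteins are switched on together as a progenitor matures, under transcription factors that include Sox10 and Myrf. In the prefrontal cortex, a region of mostly grey matter, oligodendrocytes are a minority among neurons and other glia. Because the RNA came from whole tissue, fewer oligodendrocytes and less myelin RNA per oligodendrocyte cannot be told apart.

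The promoters are shown because all 9 genes were lower in the same group, 24 h after the last cocaine injection. The RefSeq table of GRCm38.p6 gave the 250 bases before the transcription start for 8 of the 9 genes. For Cnp and for some windows of Mag this was a start inside the gene, so part of the window lies within the gene. RefSeq has Cnp from chr11:100574909. Both strands were searched for the Sox core spelled ACAAAG or ACAATG, for the Myrf motif spelled CTGGCAC or CTGGTAC, and for the TATA box spelled TATAAA. The windows of 4 genes are given 5′ to 3′ along the gene, with the motif letters in capitals on whichever strand they lie. Mobp (chr9:120149492-120149741, plus strand) is shown for its 6 copies of the Sox core, Opalin (chr19:41077114-41077363, minus strand) because it was the lowest against saline at 2 h and 7 d, Mog (chr17:37023399-37023648, minus strand) for a Myrf motif with no Sox core, and Cnp (chr11:100574689-100574938, plus strand) for holding both.
Mobp: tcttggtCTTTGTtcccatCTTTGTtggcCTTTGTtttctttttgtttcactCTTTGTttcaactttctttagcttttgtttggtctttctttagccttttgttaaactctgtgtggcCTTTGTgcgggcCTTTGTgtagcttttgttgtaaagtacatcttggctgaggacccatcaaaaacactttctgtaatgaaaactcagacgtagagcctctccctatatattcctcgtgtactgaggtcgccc
Opalin: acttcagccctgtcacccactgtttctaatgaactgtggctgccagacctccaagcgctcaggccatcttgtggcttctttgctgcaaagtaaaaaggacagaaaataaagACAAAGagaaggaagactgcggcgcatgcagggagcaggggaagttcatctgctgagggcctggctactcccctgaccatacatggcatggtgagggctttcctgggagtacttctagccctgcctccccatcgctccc
Mog: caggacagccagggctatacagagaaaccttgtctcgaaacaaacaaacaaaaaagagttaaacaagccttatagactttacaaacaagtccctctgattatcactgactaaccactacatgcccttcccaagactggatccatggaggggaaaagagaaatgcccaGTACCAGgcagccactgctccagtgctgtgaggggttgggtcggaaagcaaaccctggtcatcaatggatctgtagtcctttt
Cnp: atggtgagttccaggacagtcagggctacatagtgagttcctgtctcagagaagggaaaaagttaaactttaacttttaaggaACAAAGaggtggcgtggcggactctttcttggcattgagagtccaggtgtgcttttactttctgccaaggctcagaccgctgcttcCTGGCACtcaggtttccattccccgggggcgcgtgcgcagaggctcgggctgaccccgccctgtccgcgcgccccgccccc

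A Sox core was found in 5 of the 8 genes with a window, namely Mag, Mobp, Cnp, Opalin and Ermn, against 25.2% of all 32851 windows in the table. In Mobp all 6 copies read on the opposite strand, starting 243, 231, 221, 198, 132 and 120 bases before the start. A Myrf motif was found in 3 genes, Mog, Mag and Cnp, against 5.93% of all windows. The Sox and Myrf counts are per gene, over 10 windows of the 8 genes, whereas the shares are per window. A gene was counted if any of its windows held the motif. The windows of Mal and Cldn11 held neither motif, and no window of the 8 genes held TATAAA, which 12.4% of all windows hold. These matches describe letters in a window and are not binding sites.

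Mbp and Mobp encode myelin basic protein and myelin-associated oligodendrocyte basic protein, the small basic proteins on the cytoplasmic faces of compact myelin. Mbp, at chr18:82475125-82585637 (GRCm38), was listed at 393, 482 and 472 FPKM in saline and at 372, 392 and 457 in cocaine, at 2 h, 24 h and 7 d. Mobp (chr9:120149742-120181484) was listed at 69.7, 87.8 and 86.0 in saline and at 63.4, 73.9 and 84.3 in cocaine. These loci are those of 2 h and 24 h. At 7 d they were given as chr18:82475127-82585637 for Mbp and chr9:120149674-120182113 for Mobp. In both genes the cocaine value was below the saline value of the same time at all 3 times, and the gap was widest at 24 h, at 18.7% for Mbp and 15.8% for Mobp. The log2 ratio of cocaine to saline was -0.08, -0.30 and -0.05 for Mbp and -0.14, -0.25 and -0.03 for Mobp. The authors' own test is marked as failed for Mobp at 2 h and 24 h, and for Mag at 2 h, although both FPKM values are listed.

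Mog and Mag are immunoglobulin-like membrane proteins, Mog on the outermost surface of the sheath and Mag on the innermost one facing the axon. Mog (chr17:37010683-37023398, and from 37010694 at 7 d) was listed at 11.1, 11.7 and 12.7 FPKM in saline and at 9.60, 10.2 and 12.2 in cocaine. Its cocaine value was lower at each time, with log2 ratios of -0.21, -0.19 and -0.06. Mag (chr7:30899176-30914910, and 30899173-30915002 at 7 d) was listed at 18.9, 21.3 and 19.5 in saline and at 18.7, 19.9 and 22.8 in cocaine. The Mag pair was nearly level at 2 h, with a log2 ratio of -0.02, lower in cocaine at 24 h, at -0.095, and higher in cocaine at 7 d, at 0.23, the highest ratio of any of the 9 genes at any time.

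Cnp encodes a phosphodiesterase of the cytoplasmic channels of myelin, and Ermn encodes ermin, an actin-binding protein of late oligodendrocytes. Cnp was listed at 45.9, 54.9 and 49.4 FPKM in saline and at 47.0, 50.96 and 54.4 in cocaine, so that the order of the groups was opposite at 24 h and 7 d, with log2 ratios of 0.03, -0.11 and 0.14. The locus that the tables give for Cnp (chr11:100574904-100704271) also spans 5 other named genes. One of these, Dnajc7, overlaps Cnp by 9058 bases and stood at 68.8 to 75.2 FPKM in the 6 groups, and the library kit does not mark strand, so reads from the overlap cannot be told apart. Ermn was listed at 3.30, 4.16 and 3.63 in saline and at 3.28, 3.40 and 3.64 in cocaine. Its values were level at 2 h and 7 d, with log2 ratios of -0.01 and 0.00, and 18.2% lower in cocaine at 24 h, with a ratio of -0.28. Galnt5, which shares the locus given for Ermn (chr2:57997884-58052864), was under 0.02 FPKM in every group.

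Mal and Cldn11 encode proteins that cross the membrane 4 times, a proteolipid of membrane sorting and a claudin of the tight junctions between myelin layers. Mal (chr2:127633226-127656695) was listed at 22.8, 24.3 and 22.2 FPKM in saline and at 22.9, 23.8 and 23.3 in cocaine. Its groups were the closest of the 9 genes, with log2 ratios of 0.00, -0.03 and 0.07. Cldn11 (chr3:31149946-31164324) was listed at 25.5, 30.3 and 26.5 in saline and at 27.3, 27.6 and 28.3 in cocaine, which gave ratios of 0.10, -0.14 and 0.09. The cocaine values of Cldn11 lay closer to each other than its saline values did, and the saline value of 24 h was the highest of the 6.

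Opalin, a sialylated transmembrane protein of oligodendrocytes and central myelin, had the lowest cocaine values relative to saline at 2 h and 7 d, while at 24 h Mbp, Ermn and Mobp were lower. It was listed (chr19:41062474-41077113) at 3.85, 4.06 and 5.21 FPKM in saline and at 2.64, 3.47 and 3.92 in cocaine, and every cocaine value except that of 7 d lay below all 3 saline values. Cocaine was 31.6% lower at 2 h, 14.5% lower at 24 h and 24.7% lower at 7 d, with log2 ratios of -0.53, -0.22 and -0.40. Among all genes past the FPKM minimum, these ratios stood at percentiles 1.96, 7.48 and 4.82. With a difference of size set at a log2 ratio of 0.32 or more, called a large difference from here on, Opalin was the only one of the 9 genes to show one at any time, lower at 2 h and 7 d. Its ratio at 7 d was the nearest inside that limit and Mbp at 24 h, at -0.30, the nearest outside it.

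**Figure D1:**
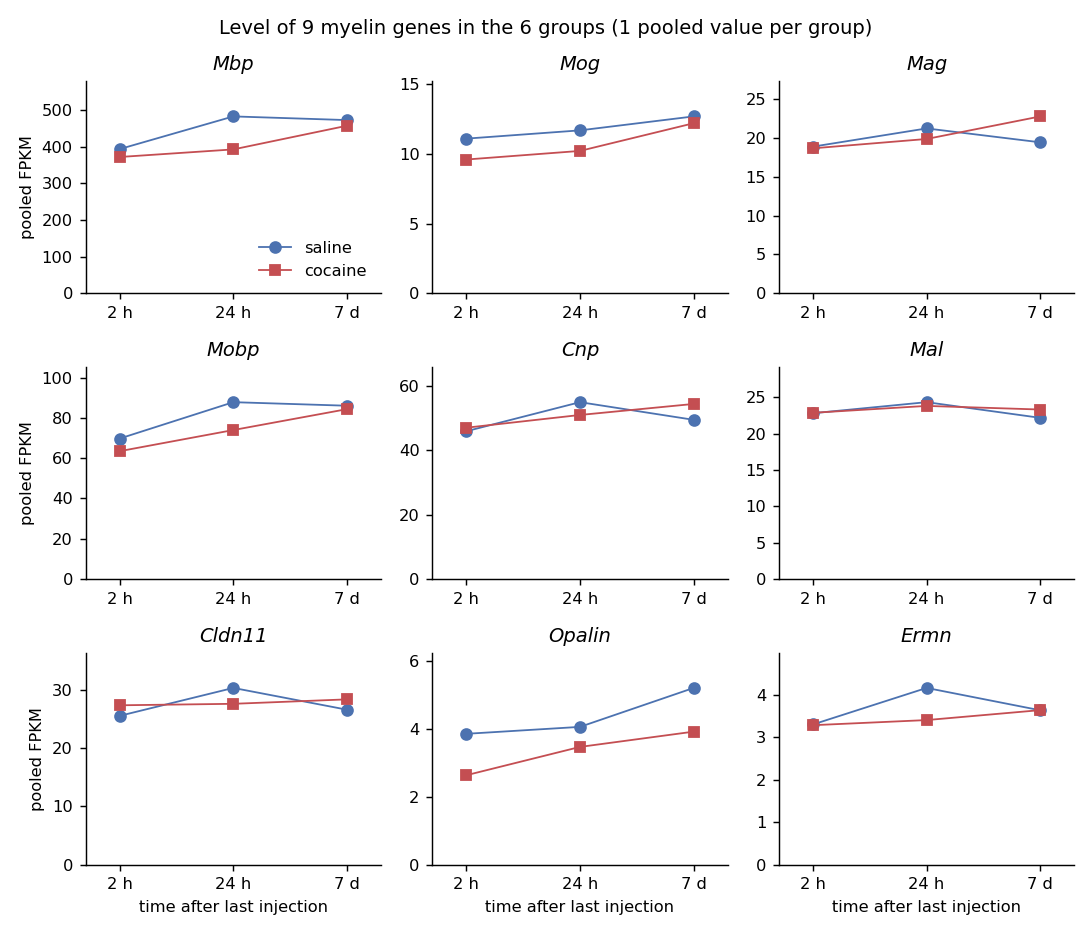
Pooled FPKM (linear axis from 0, a scale for each gene) of the 9 myelin genes in saline (blue circles) and cocaine (red squares) mice 2 h, 24 h and 7 d after the last injection; lines join groups of different mice and there are no error bars, since each group has 1 pooled value. At 24 h the saline point is above the cocaine point in all 9 panels, and for Opalin it is above at all 3 times.

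On the FPKM scale, which is per length of transcript, the genes kept nearly one order in all 6 groups, Mbp first, then Mobp, Cnp, Cldn11, Mal, Mag, Mog and last Opalin and Ermn. Mbp alone made up 66.2%, 66.9% and 67.7% of the summed saline FPKM of the 9 genes at 2 h, 24 h and 7 d. The ranges of neighbours in this order over the 6 groups did not overlap, except for Mal and Mag, with ranges of 22.2 to 24.3 and 18.7 to 22.8 FPKM, and Opalin and Ermn, which changed places between groups.

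At 2 h after the last injection, 6 of the 9 genes were lower and 3 higher in cocaine mice, and the median log2 ratio was -0.02 against 0.02 over all genes. By any amount, 43.4% of all genes were lower at this time. Past 1.1-fold, Opalin and Mog were lower, that is 2 of 9, where 16.4% of all genes were. By a large difference, Opalin was lower and no member was higher, where 5.19% of all genes were lower and 7.17% higher. Ratios ran from -0.53 for Opalin to 0.10 for Cldn11, and 8 of the 9 lay between the 5th and 95th percentiles of all genes, -0.33 and 0.39.

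At 24 h all 9 genes were lower in cocaine mice, where 46.9% of all genes were. The median log2 ratio was -0.19 against 0.01 over all genes, and the ratios ran from -0.30 for Mbp to -0.03 for Mal. Past 1.1-fold, 5 of 9 genes were lower, namely Mbp, Ermn, Mobp, Opalin and Mog, where 14.7% of all genes were. No member showed a large difference in either direction, where 3.79% of all genes were lower and 4.11% higher by that much. Mbp, Ermn and Mobp stood at percentiles 4.30, 4.85 and 6.10 of all ratios. The summed FPKM of the 9 genes was 721 in saline and 606 in cocaine, 16.0% lower. The 9 genes are expressed by the same cells in the same pooled tissue, so that they are not independent of each other and their common direction counts as 1 observation on this pair of groups.

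At 7 d the 9 genes were split again, with 4 lower and 5 higher in cocaine mice, where 52.3% of all genes were lower. The median log2 ratio was 0.00 against -0.01 over all genes, and the summed FPKM was 697 in saline and 690 in cocaine. Opalin was the only gene lower past 1.1-fold and by a large difference, where 25.4% and 7.79% of all genes were. Mag was higher past 1.1-fold, and none was higher by a large difference, where 5.18% of all genes were. Mbp, Mobp, Mog and Opalin were lower at all 3 times, 4 of 9, where 14.4% of the 12843 genes measured at all times were.

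**Figure D2:**
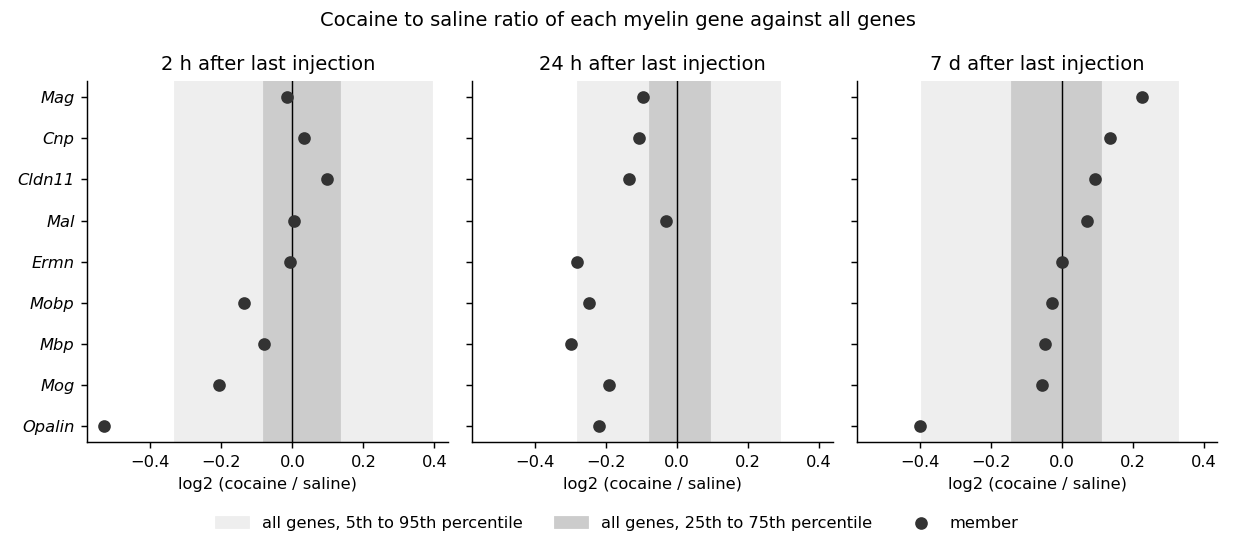
Log2 ratio of cocaine to saline FPKM (0.1 added to both) for each of the 9 myelin genes at 2 h, 24 h and 7 d, with bands for the 5th to 95th (light) and 25th to 75th (dark) percentiles of all genes past the FPKM minimum. All 9 points lie left of 0 at 24 h, from -0.30 to -0.03. At 2 h and 7 d Opalin lies furthest left, and the others lie on both sides of 0, from -0.21 (Mog, 2 h) to 0.23 (Mag, 7 d).

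The saline groups themselves differed between times. The tables were normalized separately, and the loci of Mbp, Mobp, Mog and Mag differ slightly at 7 d, so levels set across them are a description. The counts that follow were not taken over all genes, so they cannot be called particular to these 9 genes. For 7 of the 9 genes saline was highest at 24 h, with Mog and Opalin highest at 7 d instead, while the lowest saline value belonged to 2 h in 8 genes and to 7 d in Mal. The 3 saline values of a gene spanned 0.13 (Mal) to 0.42 (Opalin) on the log2 scale, with a median of 0.26. In the cocaine groups all 9 genes were lowest at 2 h and 8 were highest at 7 d. Among the 9 genes, 4 had a cocaine to saline ratio larger in size than the span of their own saline values at any time, namely Mbp at 24 h (0.298 against 0.295), Mog at 2 h and 24 h (0.207 and 0.193 against 0.192), Mag at 7 d (0.228 against 0.168) and Opalin at 2 h (0.532 against 0.424). At 24 h the cocaine value of 3 of the 9 genes lay below the saline value of 2 h, and that of the other 6 lay above it.

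The members fell into no single pattern over the 6 groups. Over the 36 pairs of genes, Pearson's r of log2 FPKM ran from -0.23 to 0.97 with a median of 0.66, with 11 pairs over 0.8 and 3 below 0. These values describe 6 groups, of which the saline and cocaine groups of a time share a table and its scaling. Mbp and Mobp were the closest pair at 0.97, followed by Mog and Opalin at 0.92 and Mag and Cnp at 0.91. Mal and Opalin, at -0.23, and Mog and Mal, at -0.18, were the least alike.

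**Figure D3:**
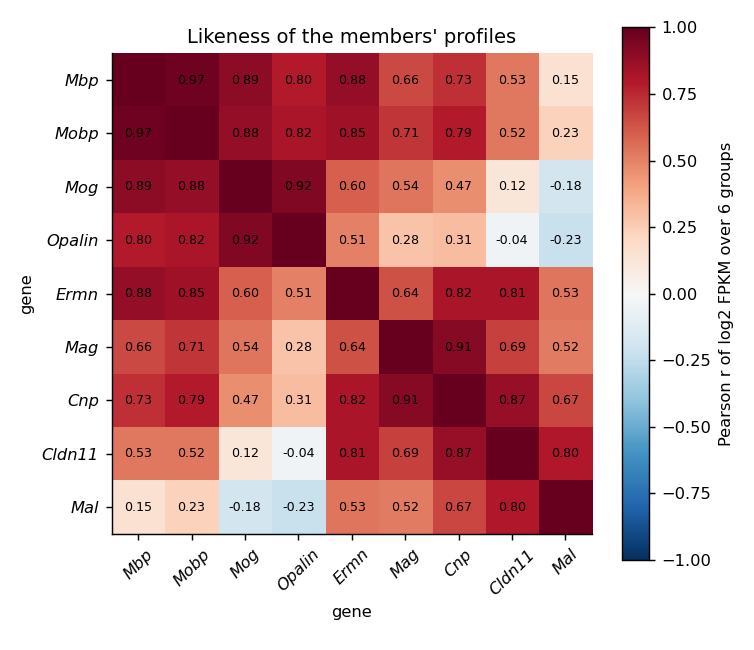
Pearson's r (colour and number) between the log2 FPKM of each pair of the 9 myelin genes over the 6 group values. Mbp, Mobp, Mog and Opalin form a block of high values from 0.80 to 0.97, and Mal has values from -0.23 to 0.80.

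The median profile of the 9 genes, each centred on its own mean, ran in saline from -0.11 (2 h) to 0.13 (24 h) and 0.03 (7 d), and in cocaine from -0.11 to -0.06 and 0.10, on the log2 scale. Of 12494 genes at 1 FPKM or more in every group, the 10 nearest to it by root mean square distance included Zfp804a (0.0226), Zfp937, Kcns2, Pid1, 5031425E22Rik, Gabrg1, Plekhb1 (0.0322), Kcnt1 and Hcls1 (0.0330). Plekhb1 was the single gene of the oligodendrocyte lists among the 10, and 3 of the nearest 50 genes were on those lists, which held 83 compared genes. The members' own distances ran from 0.0405 for Cnp to 0.244 for Opalin. The median distance was 0.126 over the genes of the oligodendrocyte lists and 0.143 over all compared genes. The nearest genes were picked as the closest of 12494, so finding genes from outside the lists among them says little about the members.

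Other genes of mature oligodendrocytes were taken from a written list of 45, of which 41 passed the FPKM minimum. They were lower in cocaine mice in 22, 31 and 20 of 41 genes at 2 h, 24 h and 7 d, with median log2 ratios of -0.04, -0.13 and 0.01. The genes lower by a large difference at 24 h included Gjb1 (2.76 in saline, 1.95 in cocaine), a connexin of oligodendrocyte gap junctions, and Hapln2 (1.26 and 0.968), a link protein of the matrix at nodes of Ranvier. Hapln2 was also lower at 2 h (1.252 and 0.810), with Galnt6 at a ratio of -0.39 and the joint locus of Evi2a, Evi2b and Gm21975 at -0.41, while Carns1 was higher (1.05 and 1.39). At 7 d Serpinb1a and Dusp15 were lower by a large difference, and Phldb1 and Adamts4 were higher, at 0.35 and 0.33.

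Myelin lipid and sterol synthesis was covered by 18 genes, all past the minimum. They were lower in 10, 11 and 5 of 18 at 2 h, 24 h and 7 d, with medians of -0.02, -0.10 and 0.10. The lineage transcription factors were lower in 3 of 10, 4 of 10 and 1 of 9 genes, with medians of 0.13, 0.03 and 0.14. Sox10 was listed at 6.03, 7.08 and 6.03 in saline and 6.72, 7.42 and 6.07 in cocaine, so that it was above saline at 24 h while the 9 myelin genes were below. Myrf, the factor of myelin gene activation, was listed at 1.89, 2.54 and 1.71 in saline and 2.19, 2.14 and 2.20 in cocaine. Its order of groups was that of Cnp and Cldn11, higher at 2 h, lower at 24 h and higher at 7 d. Mal had this order too, though nearly level at 2 h, as did the medians of the progenitor, astrocyte and endothelial genes given below. Sox8, a relative of Sox10, was higher in cocaine at every time, with 8.03, 8.07 and 6.16 FPKM in saline and 13.1, 10.02 and 7.89 in cocaine. In progenitors and new oligodendrocytes, 5, 14 and 3 of 19 genes were lower, with medians of 0.11, -0.06 and 0.21. Gpr17, a receptor of newly formed oligodendrocytes, was higher in cocaine at 24 h (6.88 and 8.93), whereas Pdgfra, the growth factor receptor of progenitors, was lower (8.41 and 6.75).

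**Figure D4:**
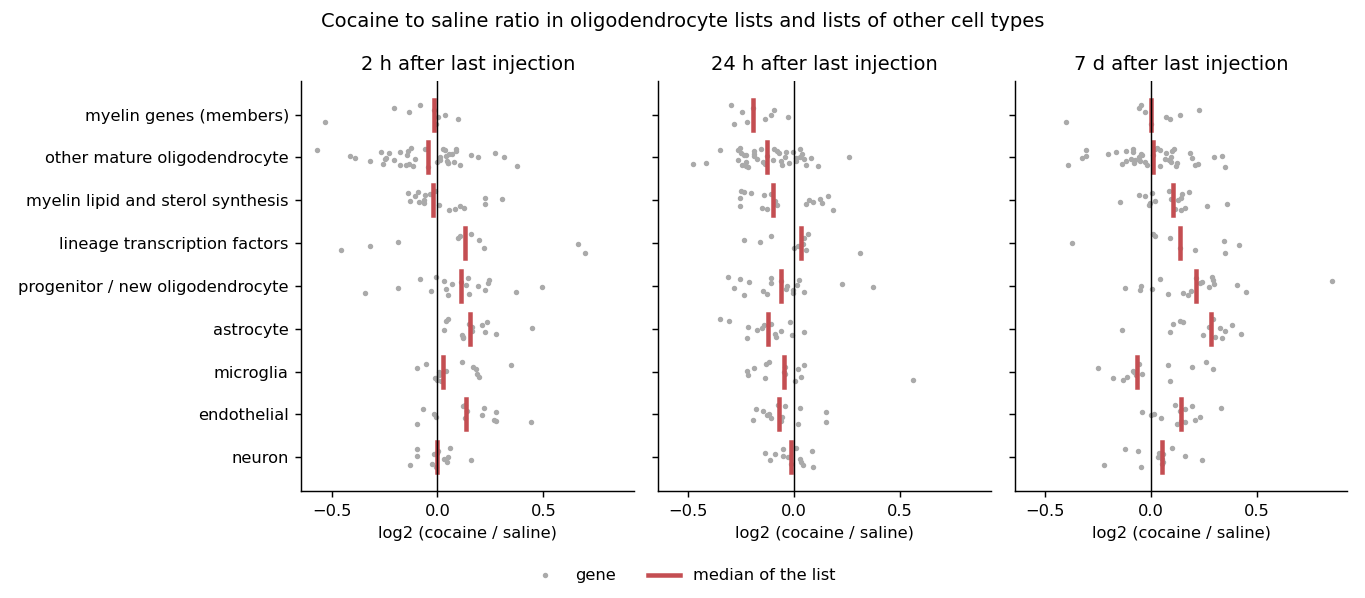
Log2 ratio of cocaine to saline FPKM for each gene (grey points) of the 9 myelin genes, of 4 further oligodendrocyte lists and of markers of 4 other cell types, with the median of each list as a red bar, at 2 h, 24 h and 7 d. At 24 h the median of the myelin genes, -0.19, is the lowest of the lists, followed by the other mature oligodendrocyte genes and astrocytes at -0.13.

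Markers of some other cell types were also lower at 24 h. Of 14 astrocyte genes, 0 were lower at 2 h, 13 at 24 h and 1 at 7 d, with medians of 0.16, -0.13 and 0.29 and summed FPKM of 1435 and 1627, 1612 and 1541, and 1405 and 1587 in saline and cocaine. Gfap, the intermediate filament of astrocytes, stood at 41.3 in saline and 32.4 in cocaine at 24 h. Of 14 endothelial genes 4, 10 and 1 were lower, with medians of 0.13, -0.07 and 0.14 and summed FPKM of 250 and 283, 271 and 268, and 249 and 263. Of 14 microglial genes 4, 9 and 9 were lower, with medians of 0.03, -0.05 and -0.06, and their summed FPKM was 432 and 447, 359 and 333 (over 13 genes), and 452 and 435. Of 13 neuronal genes 7, 7 and 4 were lower, with medians of 0.00, -0.01 and 0.05, and their summed FPKM was 4236 and 4239, 4409 and 4304, and 4222 and 4233. Of 10 striatal genes 3, 3 and 4 were lower, and Drd2, the dopamine receptor that is abundant in striatum, was at 0.146 to 0.234 FPKM in all groups. Of 14 choroid plexus genes 2 passed the FPKM minimum. One of them, Ttr, which encodes transthyretin, stood at 1.90 and 0.461, 1.80 and 1.1, and 0.284 and 6.54 in saline and cocaine at 2 h, 24 h and 7 d. The other, Enpp2, is also on the list of mature oligodendrocyte genes and stood at 77.0 and 74.7 at 7 d. Choroid plexus genes under the minimum went both ways at 7 d, with Folr1 at 0.668 and 0.290 and Kl at 0.376 and 0.531. The part of these cell types and of tissue dissection in the myelin differences was not tested.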

How the data were processed

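RNA of 12 libraries in 6 groups was sequenced by the authors, who per the labels trimmed reads with Trimmomatic 0.32, aligned them with TopHat2 2.0.12 and compared the groups of each time with Cuffdiff (Cufflinks 2.2.1). The deposited tables, 1 per time point, hold for each locus 1 FPKM per group, made by the authors from both libraries of that group. They also hold fold changes, test statistics and p and q values of the authors' comparisons, which were not used here. The labels give GRCm38 and the methods mm9; starts were taken as on GRCm38 and written 1-based. The first FPKM column was read as saline and the second as cocaine. Against the FPKM values of the supplementary tables, 379 of 456, 13 of 14 and 491 of 530 genes matched within 2 percent at 2 h, 24 h and 7 d, and 0 matched with the columns swapped. The labels and methods differ in read length and in the number of libraries; the 12 listed samples were used.

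Log2 ratios were taken as log2 of (cocaine FPKM + 0.1) over (saline FPKM + 0.1), so that changes of low genes are understated. Genes needed a mean FPKM of at least 1, a name on several loci took its longest locus, and a log2 ratio of 0.32 in size was the limit for a large difference, which is not a test. With 1 pooled value per group and the authors' test results left out, no SD or p-value was computed. Named genes were all 9 members, up to 3 genes per further list and time with the largest of such ratios, defining genes of each cell type, and the 10 genes of nearest profile. Carns1, Dusp15, Dnajc7, Galnt5, Enpp2, Folr1 and Kl, which lie outside that rule, were chosen after their values were seen. The members and lists were chosen with earlier results of these data known. At 24 h the microglial sums left out 1 gene that was listed on 2 loci of equal length. Some genes that the naming rule picks are not reported here. Lists also held Zfp24, Lhfpl3, Tubb3 and Drd1, which were not matched by name. Promoters came from RefSeq (GRCm38.p6). Python 3.11.15 was used (matplotlib 3.10.9, numpy 2.4.6, pandas 2.3.3, scipy 1.17.1). The log2 ratio was checked on saline values multiplied by fixed factors without added noise. The lists, profiles, correlations and promoter search were not checked in this way.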

Additional observations from a re-analysis of the deposited data

Results flagged for a closer look

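Cnp was lower in cocaine than in saline mice at 24 h, with a log2 ratio of -0.11, and higher at 7 d, with a log2 ratio of 0.14. It was looked at again because the ratios have opposite signs and both are over 0.1 in size. The median of the 14 astrocyte genes had the same pattern, at -0.13 at 24 h and 0.29 at 7 d. Each ratio rests on 1 pooled value per group, and the difference between the times was not tested in either case.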

How the results depend on the processing

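The pooled FPKM values carry no replicate error and no read counts, so no interval was set on any ratio. The number of the 9 genes with a log2 ratio of at least 0.32 in size came to 1 (2 h), 0 (24 h) and 1 (7 d). With a threshold of 1.1-fold it was 2, 5 and 2, and with 1.5-fold it was 0 at 2 h and 0 at 7 d. The share of all genes past 1.1-fold in either direction was not computed. With a mean FPKM of at least 5 it was 0 at 2 h and 0 at 7 d, since Opalin then leaves the count. Centring on genes of like transcript length, an alternative chosen after seeing the data, gave 0 at 7 d, where Opalin stood at -0.32. The medians of the 9 genes moved by less than 0.1 on the log2 scale under every alternative run. Changing the FPKM minimum cannot alter a gene's own ratio, and the other choices of locus returned the reported ratios of all 9 genes. Much of the following count therefore says little about stability. Of 210 values of single genes under alternatives, 208 moved by less than 0.1, and 4 changed sign, all of them values near 0. These were Mog at 7 d (0.05 against -0.06) and Ermn at 7 d (-0.03 against 0.00) with the centring on length, and Mal at 2 h (0.00 as reported) with that centring (-0.01) and with centring on the median of all genes (-0.02). Opalin at 2 h was -0.42 with a pseudocount of 1 FPKM. No paired analysis was possible because the deposited columns are pooled over the libraries of a group and carry no replicate number. Leaving out a library was not possible for the same reason.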
